A study of Homo sapiens with 2 samples.

Results

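The genes described here encode the machinery that copies DNA, and they were examined for contact of their RNA with DDX18, a nucleolar protein of the DEAD-box helicase family, by iCLIP in the human embryonic stem cell line H9. The 43 members were chosen by name, as known parts of that machinery, with earlier results of these data known, and a peak was counted for a member when the peak's name in the deposited list carried that gene's Entrez identifier (the called gene). By this rule 67 of the 17163 entries of the list belonged to members, at 67 distinct positions, and 27 of the 43 genes had at least 1 peak.

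The study had 1 group of 2 samples, H9 cells with 3XFlag-DDX18, a version of the protein that carries FLAG tags, kept in normal culture on inactivated mouse embryonic fibroblasts. In iCLIP, ultraviolet light (here 160 mJ/cm2 at 254 nm) links a protein to the RNA it touches, the protein is pulled down, here through the FLAG tag, and the attached RNA is sequenced. Both samples share 1 peak list with 1 height per peak, so no spread between them can be given, and whether they came from separate cultures is not stated in the labels. How the level of the tagged protein compared with that of the cells' own DDX18 is not stated in the labels, and no untagged or input sample was used here. Of 8 stem cell marker genes, 6 had a peak, with 16 each in LIN28A and DNMT3B, and POU5F1 and SOX2 had none. Of 5 genes taken here as fibroblast markers, 3 had a peak, namely COL1A1, COL1A2 and THY1, and COL3A1 and VIM had none. Whether H9 cells also express these genes was not tested. Of all protein-coding genes 31.0% had a peak. The peaks were annotated on the human genome while the feeder cells were from mouse, and the part of feeder cell RNA in the peaks was not tested.

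DNA replication starts at origins, where the origin recognition complex (ORC1 to ORC6) with CDC6 and CDT1 loads the MCM2 to MCM7 ring onto DNA. CDC45 and the GINS complex turn that ring into the active helicase, and the primase and polymerases then copy the opened strands. Replication factor C loads the PCNA clamp that holds polymerases on DNA, RPA covers bare strands, FEN1 and LIG1 join the pieces of the lagging strand, and topoisomerases relieve the twisting ahead of the fork. Dividing stem cells spend much of their cycle in S phase. How strongly the H9 cells expressed these genes is not in the data used here. What was measured here is contact of DDX18 with the RNA of these genes, not with the proteins or with replicating DNA.

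Peaks were listed for 27 of 43 replication genes (62.8%, exact 95% binomial interval 46.7 to 77), against 31.0% of all 20056 protein-coding genes. This background includes genes that the cells do not express, and RNA abundance is not in the list, so the part of expression in the share was not tested. The intervals cover counting error only. Helicase genes had a peak in 10 of 12 cases (83.3%, 51.6 to 97.9), clamp and clamp loader genes in 5 of 6 (83.3%, 35.9 to 99.6) and topoisomerase genes in 3 of 3. The share was 3 of 8 in origin genes (37.5%, 8.52 to 75.5), 4 of 9 in polymerase and primase genes (44.4%, 13.7 to 78.8) and 2 of 5 among RPA, LIG1 and FEN1 (40%, 5.27 to 85.3). The intervals of all 6 groups overlapped one another, so the order of the groups was not resolved by these counts. The intervals of the helicase and the clamp groups lay above the background share, and those of the other 4 groups included it. That is not a test, because the members were chosen with earlier results of these data known. With heights of at least 10, a peak was listed for 5 of 12 helicase and 1 of 6 clamp genes, against 8.78% of all protein-coding genes.

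**Figure D1:**
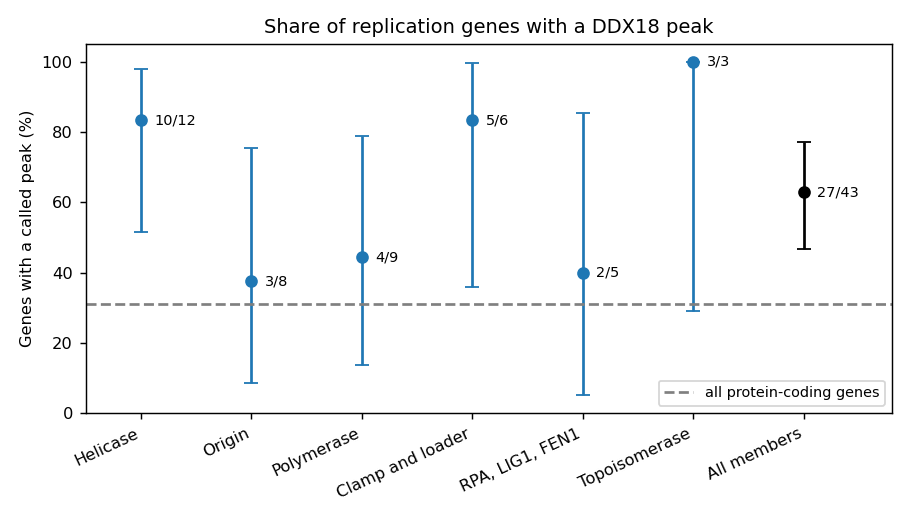
Share of genes with a called DDX18 peak (percent, y axis) in the 6 role groups and in all 43 members. Points are shares with counts beside them, bars are exact 95% binomial intervals, and the dashed line marks the 31.0% of all protein-coding genes; helicase and clamp genes both stand at 83.3%, and origin genes at 37.5%.

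The 16 members without a peak were CDC45, GINS2, ORC3, ORC4, ORC5, ORC6, CDT1, PRIM1, POLD1, POLD2, POLD3, POLE2, RFC5, RPA2, RPA3 and FEN1. They include every listed member of the DNA polymerase delta group and every ORC subunit from ORC3 to ORC6. Median gene spans were 40891 nt in members with a peak and 29221 nt in members without, and they were 50959 and 16471 nt, in the same order, among other protein-coding genes. No listed peak means that no peak reached the authors' threshold, not that the RNA was untouched.

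The core helicase carried peaks on all of its 6 subunits, MCM2 to MCM7, with 19 peaks in total and 17 of these in coding exons. MCM3 had the highest peak among the helicase genes. Its 5 peaks lay on chromosome 6 (hg19, minus strand) with heights of 12 in exon 1 of 16, 12 in exon 3, 20 in exon 5, 11 in exon 11 and 15 in the 3' UTR. Height is the deposited peak height, a whole number that is not scaled to sequencing depth or to RNA abundance. The peak of height 20 covered positions 52143588 to 52143592, and its deposited p, the authors' own, was 9.9e-10. Peaks of MCM3 thus stood in exons from the first to the last of the transcript, with the highest in the 5' part.

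MCM2 also had 5 peaks, on the plus strand of chromosome 3. Their heights were 8 and 8 in exon 8 of 16, 11 in exon 10, 11 in exon 14 and 8 in the last exon of a non-coding isoform of the gene. The exon 8 pair started 73 nt apart, at 127327741 and 127327814. No MCM2 peak lay in the exons before exon 8, in contrast to MCM3, where 3 of 5 lay in exons 1 to 5. MCM6 had 3 peaks on chromosome 2, of heights 7 in exon 5 of 17 and 8 and 12 in exon 15. The exon 15 pair started 66 nt apart, and the higher of these, at position 136603928, was among 3 member peaks with the lowest deposited p of the list (1e-100).

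MCM7 had 3 peaks on the minus strand of chromosome 7, with heights of 12 in exon 3 of 15 and 14 and 14 in exons 5 and 6 of 14 of another isoform. Each gene carries 1 value named PH0 in its peak names, read here as the height expected for that gene, and MCM7 had the largest of all members, 0.76. MCM7 also hosts a microRNA cluster. The microRNA genes MIR25, MIR93 and MIR106B lie inside MCM7 in the RefSeq gene table, and 0 MCM7 peaks lay in them or carried their names. For each of these microRNA genes 1 mature RNA is shown, and the mature RNA of its other arm is left out. They are shown because this hosted cluster had no listed peak, unlike the small RNA inside POLA1 described below. The sequences are from RefSeq (GRCh38.p14, chromosome 7, minus strand, 5′ to 3′), with the seed, bases 2 to 8, in capitals.
hsa-miR-25-3p (100093571 to 100093592): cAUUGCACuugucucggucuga
hsa-miR-93-5p (100093815 to 100093837): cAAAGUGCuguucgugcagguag
hsa-miR-106b-5p (100094043 to 100094063): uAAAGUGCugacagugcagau
miR-93-5p and miR-106b-5p share their seed, and miR-25-3p has another. All 3 MCM7 peaks lay in exons of the protein-coding message, and none was annotated to an intron.

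The remaining ring subunits had fewer peaks, all in coding exons. MCM4 had 2, of heights 10 in exon 2 and 9 in exon 10 of 16, and MCM5 had 1, of height 9 in exon 5 of 17. MCM10, which helps to activate the loaded ring, had 2 peaks on chromosome 10, of height 9 in exon 8 and 5 in exon 9 of 20. Among the GINS subunits, GINS1 had 1 peak of height 6 in exon 5 of 7. GINS3 had 2, of heights 5 in exon 3 and 6 in the 3' UTR, and GINS4 had 1 of height 9 in intron 6 of 7. The highest peak of each of MCM2 to MCM7 lay between 9 and 20, above those of GINS1 and GINS3 (6 and 6) and at or above those of MCM10 and GINS4 (9 and 9). PH0 was 0.11 to 0.76 in MCM2 to MCM7, 0.11 in GINS4 and 0.04 in GINS1, GINS3 and MCM10. Divided by PH0, the highest peaks were 18.4 to 109.1 in MCM2 to MCM7 and 81.8 in GINS4. They were 150 in GINS1 and GINS3 and 225 in MCM10, so the order by height was not kept on that scale. CDC45 and GINS2 had no peak called.

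**Figure D2:**
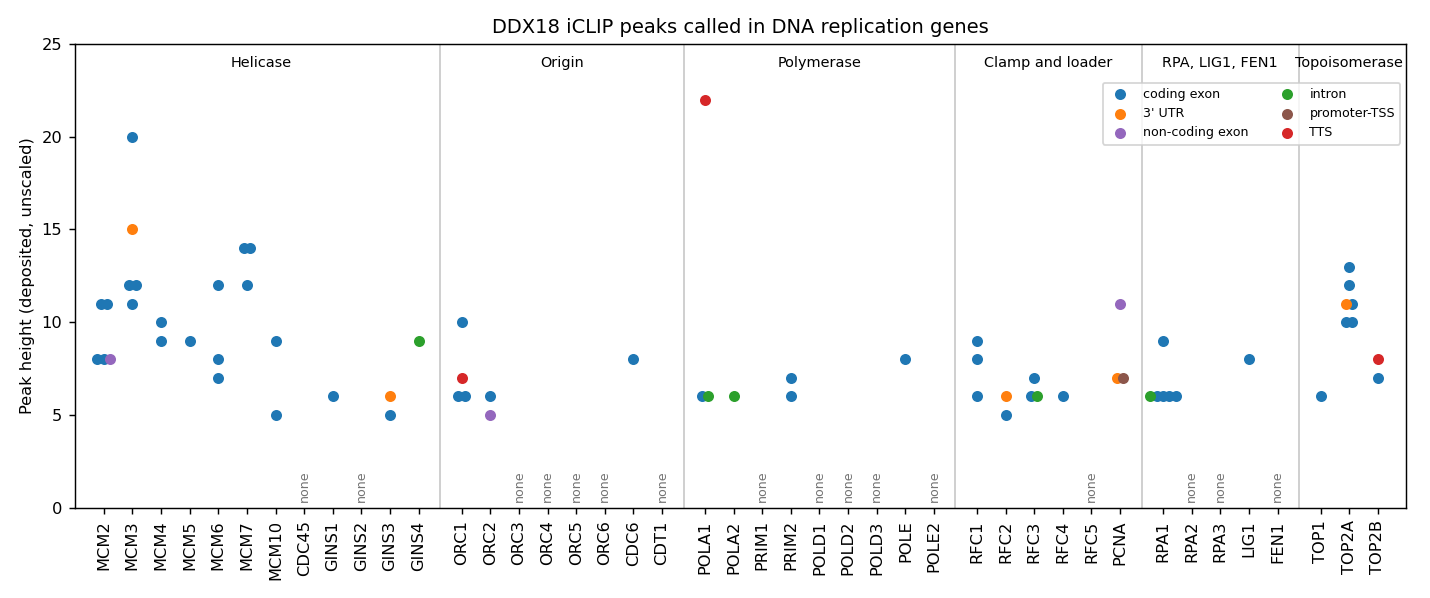
Height of every peak called in the 43 replication genes (y axis, deposited height without scaling), by gene and role group (x axis), coloured by annotated region. Genes marked "none" had no peak; heights ran from 5 to 22, with POLA1 (22) and MCM3 (20) the highest.

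Origin genes were represented mainly by ORC1, the largest subunit of the origin recognition complex. ORC1 had 4 peaks on the minus strand of chromosome 1, with heights of 10 in exon 6 of 17, 6 in exon 11, 6 in exon 13 and 7 in the stretch labelled TTS (transcript end). The exon 6 peak, at 52859421 to 52859425, had the lowest deposited p of the list (1e-100). ORC2 had 2 peaks on chromosome 2, of heights 6 in exon 10 of 18 and 5 in the first exon of a non-coding isoform, 148 nt from the start site. CDC6, the ATPase that helps ORC to load the MCM ring, had 1 peak of height 8 in exon 7 of 12. The other 5 origin genes had none. ORC1 therefore held 4 of the 7 peaks of the group.

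Polymerase and primase genes held 7 peaks in 4 genes. The highest peak of all members, of height 22, was called in POLA1, the catalytic subunit of DNA polymerase alpha. It covered positions 24762663 to 24762672 of the X chromosome and lay 109 nt downstream of the start of SCARNA23, a small Cajal body RNA of 130 nt whose gene sits inside POLA1. This peak therefore lay within the small RNA gene and not in the coding message. The other 2 peaks of POLA1 had heights of 6, in exon 20 of 37 and in intron 26 of 36. Without the SCARNA23 peak, the highest peak of the polymerase group was 8, in exon 23 of 49 of POLE, the catalytic subunit of DNA polymerase epsilon. PRIM2, the large primase subunit, had heights of 7 in exon 2 of 5 and 6 in exon 7 of 15 of different isoforms. POLA2 had 1 peak of height 6, in an Alu repeat (AluSz6) of intron 13 of 17. The gene table places 6 small RNA genes wholly inside 4 members, and SCARNA23 was the only 1 with a peak counted inside. That count relies on the nearest start site in the deposited annotation, so a small RNA gene missing from that annotation could not be counted. Whether the snoRNA gene inside PCNA was in that annotation was not tested.

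The clamp loader had peaks on 4 of its 5 subunits. RFC1, the largest, had 3 on the minus strand of chromosome 4, of heights 6 in exon 9 of 25, 9 in exon 14 and 8 in exon 20. The exon 14 peak, at 39308263 to 39308281, also had the lowest deposited p of the list (1e-100). RFC3 had heights of 7 in exon 2 of 9 and 6 in an LTR repeat (MER51A) of intron 8 of 8 of the same isoform. Another RFC3 peak, of height 6, lay in exon 9 of 9 of a different isoform. RFC2 had a pair of peaks in its last exon, 10 of 10, that started 77 nt apart, of height 5 in the coding part and 6 in the 3' UTR. RFC4 had 1 peak of height 6 in exon 5 of 11.

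PCNA, the sliding clamp itself, had 3 peaks on the minus strand of chromosome 20 and none labelled as a coding exon. The highest, of height 11 at position 5100503, lay 144 nt from the PCNA start site and was annotated to the exon of PCNA-AS1, an antisense RNA that overlaps the start of the gene. A peak of height 7 was labelled as the start region of PCNA-AS1, and another of height 7 lay in the PCNA 3' UTR. PCNA peaks were on the strand of PCNA, so the antisense labels come from overlapping annotation. The share of PCNA peaks in its own coding sequence cannot be read from these labels.

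RPA1, the largest subunit of the protein that covers single strands, had 6 peaks on the plus strand of chromosome 17, as many as TOP2A and more than any other member. Of these, 5 had a height of 6, in an Alu repeat of intron 4 of 16 and in exons 5, 10, 13 and 17 of 17, and 1 had a height of 9, in exon 15. All but the peak of height 9 had a deposited p of 0.0155, so at a threshold of 0.01 RPA1 kept 1 peak of 6. LIG1, the ligase of the lagging strand, had 1 peak of height 8 in exon 3 of 28. RPA2 and RPA3, which encode the other subunits of that complex, had none.

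All 3 topoisomerase genes had a peak, and TOP2A, the topoisomerase of dividing cells, had most. Its 6 peaks lay on the minus strand of chromosome 17, with heights of 10 in exon 6 of 35, 10 in exon 8, 13 in exon 21, 12 in exon 23, 11 in exon 33 and 11 in the 3' UTR. The lowest TOP2A peak (10) was higher than the highest peak of TOP2B (8) or TOP1 (6). TOP2B had heights of 7 in exon 23 of 36 and 8 near its start site, 112 nt from it. The latter carried the label TTS of MIR4442, but the gene table places that hairpin 501 nt upstream of the next TOP2B start, so the label does not place the peak in the microRNA. TOP1, which cuts a single strand, had 1 peak of height 6 in exon 15 of 21. PH0 was 0.35 for TOP2A, 0.11 for TOP2B and 0.05 for TOP1, so the order of the heights was also that of PH0.

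Another 2 peaks within TOP2A exons lay on the opposite strand and were called in RARA. Both had a height of 5, in exon 33 at position 38547813 and in exon 18 at position 38560632. The first, which ended at 38547849, spanned the whole TOP2A peak of height 11 in that exon (38547834 to 38547849), with starts 21 nt apart. The other started 3392 nt from the start of the nearest TOP2A peak. They were not counted for TOP2A.

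**Figure D3:**
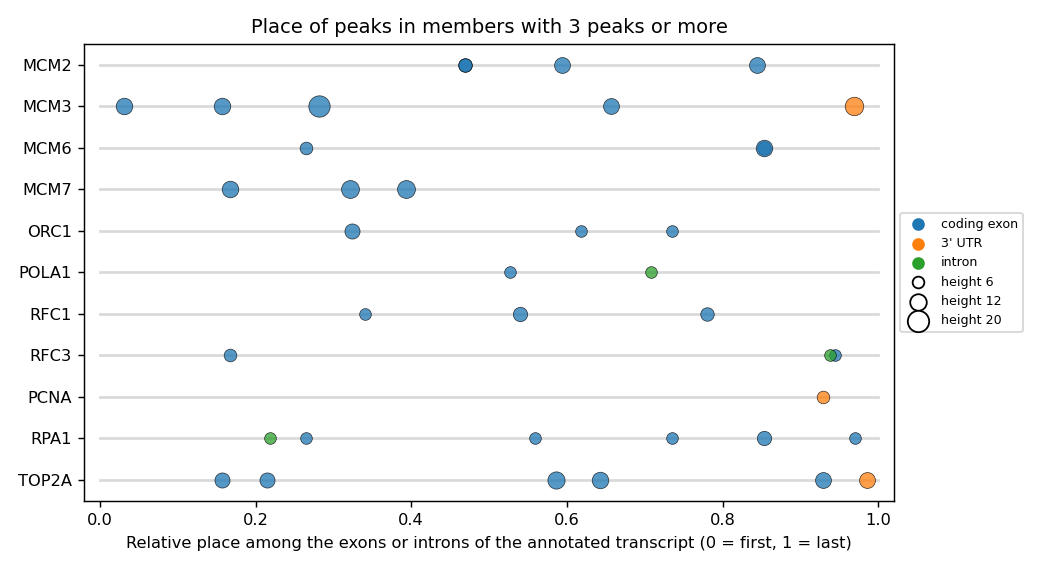
Place of peaks along the 11 members with 3 peaks or more. The x axis is the relative place of the exon or intron among those of the annotated transcript, point size is the peak height and colour is the region; TOP2A and MCM3 peaks run from early exons to the 3' UTR. Peaks labelled by start or end stretches or by non-coding transcripts are left out.

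Peaks of replication genes lay mostly in coding exons. These held 50 of the 67 positions (74.6%, 62.5 to 84.5), against 7412 of 15532 positions of other protein-coding genes (47.7%, 46.9 to 48.5). The intervals treat positions as independent, but the 67 lay in 27 genes, so they can be too narrow and serve as no test. A 3' UTR held 5 member peaks (7.46%, 2.47 to 16.6), against 18.8% of the others. Introns also held 5 (7.46%, 2.47 to 16.6), against 18.0%, and 5' UTRs held 0 of 67, which allows a share of up to 5.36% by the exact interval, against 2.32%. By role group the coding share was 84.0% in helicase genes (21 of 25 peaks, 63.9 to 95.5), 71.4% in origin genes (5 of 7), 57.1% in polymerase genes (4 of 7), 58.3% in clamp genes (7 of 12, 27.7 to 84.8), 85.7% among RPA, LIG1 and FEN1 (6 of 7) and 77.8% in topoisomerase genes (7 of 9). Of the 5 clamp peaks outside coding exons 3 were those of PCNA. The peak in the PCNA 3' UTR was labelled as PCNA, and the other PCNA peaks carried labels of PCNA-AS1. The intervals of the groups overlapped. By gene, 24 of 43 members had a peak in a coding exon (55.8%), against 15.8% of all protein-coding genes. Among genes with a peak, all peaks lay in coding exons for 13 of 27 members (48.1%) and 23.3% of the others. The lengths of the regions were not used here, so the part of region length in these shares was not tested.

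**Figure D4:**
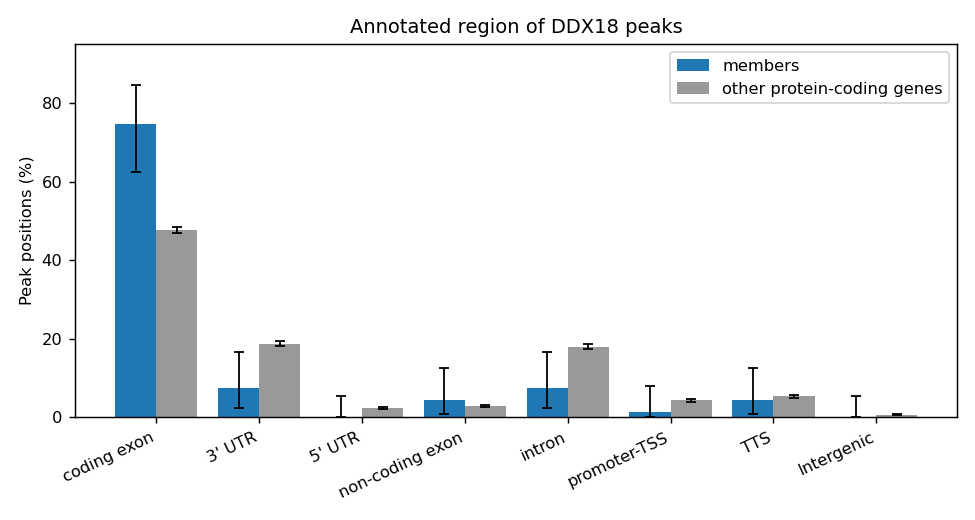
Share of peak positions by annotated region (percent, y axis) in the 67 positions of replication genes and the 15532 of other protein-coding genes. Bars are shares and lines exact 95% binomial intervals; coding exons held 74.6% and 47.7%, and 3' UTRs 7.46% and 18.8%.

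Along the transcript, the 50 coding peaks of members were spread over the exons. Their median relative exon place was 0.527 (0 at the first exon, 1 at the last), against 0.5 for other genes. With the exons of each transcript divided into 3 equal parts, the middle part held 23 of the 50 (46.0%), against 35.3% of the 7300 coding peaks of other genes in transcripts with at least 3 exons. First exons held 1 member peak and last exons 3, against 4.19% and 9.23% of the peaks of other genes. These numbers are small, and no test of place was made.

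Members with a peak had a geometric mean of 2.07 peaks (mean log2 1.05, SD over genes 0.89, n = 27 genes), against 1.78 (mean log2 0.83, SD 1.07) in 6191 other protein-coding genes. No test of this difference was made, and with peaks up to a deposited p of 0.01 the order turned, to 1.68 against 1.71. With every deposited peak, more of the members had several: 9 of 27 had 1 peak (33.3%), against 52.7% of the others. At least 2 were listed for 18 of 43 members, against 14.7% of all protein-coding genes. With a deposited p up to 0.01, MCM10, GINS3, ORC2, RFC2, PCNA and RPA1 each kept only 1 peak, so these counts depend on the threshold. The matching shares of other genes were not counted at that threshold. With every deposited peak, the 11 members with 3 peaks or more were MCM2, MCM3, MCM6, MCM7, ORC1, POLA1, RFC1, RFC3, PCNA, RPA1 and TOP2A. Median peak width was 12 nt in members and 13 nt in the others.

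Peaks of replication genes were low. Their median height was 8, as in other protein-coding genes, and their range was 5 to 22. The median highest peak per gene was 9 in members (quartiles 6.50 and 10.5) and 7 in others (quartiles 6 and 10), but the geometric means were 8.86 and 8.77. A peak of at least 10 was listed for 9 members, MCM2, MCM3, MCM4, MCM6, MCM7, ORC1, POLA1, PCNA and TOP2A, which is 20.9% of members against 8.78% of all protein-coding genes. POLA1 reached that height through its SCARNA23 peak alone, since its other peaks had heights of 6. The lowest deposited p was given to 3 of 67 member peaks (4.48%) and to 15.0% of peaks in other genes. Summed over all members the heights came to 579.

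The height a peak needed to be listed rose with PH0. Among protein-coding genes with PH0 from 0.1 to below 0.3 the lowest listed height was 6, and with PH0 from 0.3 to below 1 it was 8. The 4 members in the upper of these ranges, MCM3, MCM4, MCM7 and TOP2A, had no peak below 9. Median PH0 was 0.06 in members and 0.05 in the others, and 16 of 27 members exceeded the median of the others (59.3%, against 44.5% of the others). Divided by PH0, the highest peak of MCM7 was 18.4 and that of MCM3 52.6, whereas it was 225 for MCM10 and RFC1. The median of this ratio was 109.1 in members and 150 in others, so on that scale the members stood lower, and heights of different genes are not comparable as strengths of contact.

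**Figure D5:**
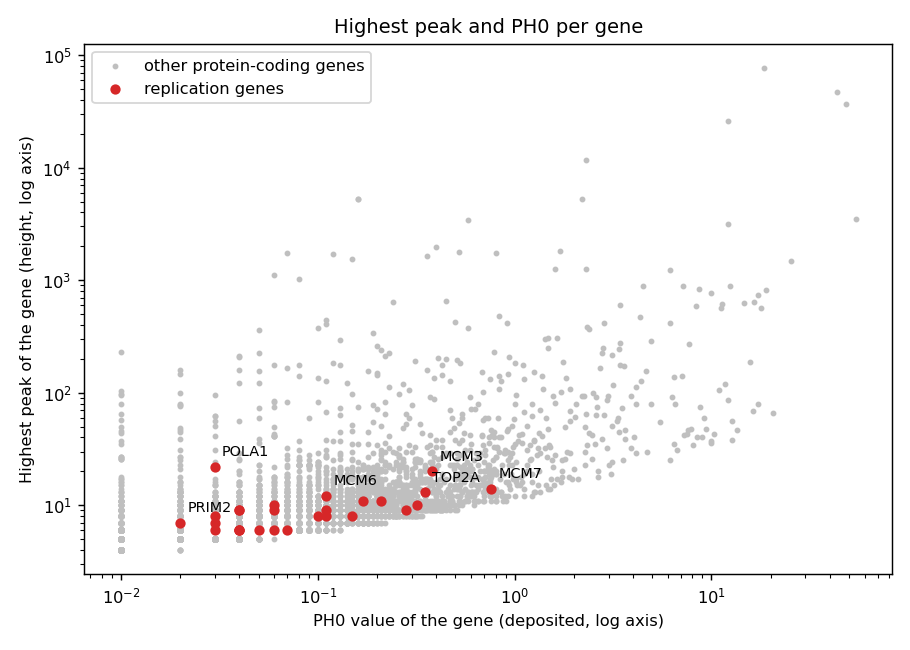
Highest peak of each gene (y axis, log scale) against its PH0 value (x axis, log scale) for replication genes and other protein-coding genes with a peak and PH0 above 0. The replication genes lie among the others, with highest peaks of 6 to 22, and the lowest heights rise with PH0.

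Of the 67 member peaks, 63 were annotated to the called gene and 4 to another, namely SCARNA23 in POLA1, MIR4442 in TOP2B and PCNA-AS1 for 2 peaks of PCNA. All 67 were listed under 1 gene only. Another 16 peaks had a member as the gene of the nearest start site but were called elsewhere. FEN1 was nearest to 7 of these, of heights 12 to 27, all called in FADS1 on the opposite strand, so FEN1 itself was not among the called genes. By the gene of the nearest start site 26 members had a peak, against 29.2% of protein-coding genes: FEN1, GINS2 and ORC4 were gained and POLA1, POLA2, RFC4 and TOP1 were lost. With a deposited p up to 0.01 all 27 members kept a peak, against 27.3% of protein-coding genes, and with positions listed under 1 gene all 27 did, against 29.6%. Without small RNAs and repeats 26 had a peak (POLA2 was lost), against 28.3%, and with exonic peaks only 25 had one (GINS4 and POLA2 were lost), against 21.9%. Pseudogenes named after 10 members, 17 in all, had 0 peaks called, but reads shared between such copies and PCNA, PRIM2, RFC3, TOP1 or ORC1 could have been placed on either. The same holds for POLD2, RFC5, RPA2, RPA3 and FEN1, which also have such copies and had no peak called.

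Other replication genes, from a list of regulators and helpers outside the 43 members, had a peak in 23 of 40 cases (57.5%, 40.9 to 73.0). The share of all protein-coding genes was 31.0%. Those with a peak had a geometric mean of 1.57 peaks, against 1.78 in all protein-coding genes with a peak. Coding exons held 23 of 41 positions (56.1%, 39.7 to 71.5), against 47.8% in all protein-coding genes, a share inside that interval. Regulators of origin firing had a peak in 7 of 12 genes, fork and checkpoint factors in 5 of 9, replication-coupled chromatin factors in 6 of 7 and enzymes of nucleotide supply in 4 of 6. RNase H2 genes had a peak in 1 of 3, and the small polymerase subunits POLD4, POLE3 and POLE4 in none of 3. By summed height, TIPIN led with 1 peak of 120, labelled as the end of SCARNA14. RRM1, the large subunit of ribonucleotide reductase, had 4 peaks that summed to 29, and HELLS 3 that summed to 28. DONSON also had 3 that summed to 28, all annotated to its neighbours ATP5PO and ITSN1.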

How the data were processed

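iCLIP of FLAG-tagged DDX18 was measured in 2 H9 samples. The authors deposited 1 list of significant peaks, and each peak's height is a signal given as a whole number without scaling. Per the file headers, the peaks were annotated on hg19 with annotatePeaks.pl (HOMER), and the distances to start sites and the peak names, whose values include a p-value, are the authors' own. The submitters' processing notes name FastQC 0.10.1 and BWA. Which program called the peaks, how duplicate reads were treated, what PH0 means and what made a peak significant is not stated in these sources.

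Genes were matched by Entrez identifier to a RefSeq table (GRCh38.p14), which served for names, biotypes and spans, and all 43 members matched. Peaks lay on the strand of the called gene for 13592 of the 13615 entries whose gene had a strand in the table. A peak counted as inside a small RNA gene when that gene's start site was nearest and the peak lay within its length. The members and lists were chosen with earlier results of these data known. Every member with a peak is named, members with 3 peaks or more and the highest of each role group with every height, and the 5 other replication genes with the largest summed height, of which 1 is not reported here. No test was made, because the list has no control group and no value per replicate. Shares have exact 95% binomial (Clopper-Pearson) intervals, computed with Python 3.11.15, pandas 2.3.3 and SciPy 1.17.1. Counting was tested on simulated data. Alternatives changed the p-value, the height, the gene assignment, shared positions, small RNAs and repeats, and regions. Reads per sample are not known here, and sequences under the peaks were not used.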

Additional observations from a re-analysis of the deposited data

How the results depend on the processing

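With 2 peaks or more per gene, at any deposited p, the share of replication genes was 41.9%, against 14.6% of other protein-coding genes. With heights of at least 10 it was 20.9% against 8.75%. Under the other 5 settings (a deposited p up to 0.01, the nearest start site, positions listed under 1 gene, no small RNAs or repeats, exonic peaks only) it ran from 58.1% to 62.8%. Divided by PH0, the median highest peak was 109.1 against 150, on another scale than height. The geometric mean number of peaks was 1.78 against 2 with heights of at least 10, and 1.68 against 1.71 with a p up to 0.01, both below the others. The share in coding exons ran from 73.4% to 81.0% over 5 settings, against 48.2% to 54.7%. No paired analysis was possible because both samples are in 1 group and share 1 list, so leaving out a replicate was not run either. Reads per sample and RNA abundance are not known here, so the part of depth in which genes were listed was not tested.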
